A study of Mus musculus with 3 samples.

Results

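Cell division RNA was followed in mouse skin wounds through 41 genes of the cell cycle, out of 32285 genes counted. The genes were listed by what they are known to do, with earlier results of these data known: 16 encode parts of the DNA replication machinery that is made for S phase, 22 encode proteins of G2 and mitosis, and *Stmn1*, *Hmgb2* and *Ccnd1* were kept apart because many cells that do not divide also use them. All 41 were matched by Ensembl ID, and every one had unique molecular identifiers (UMIs, each standing for 1 captured transcript) in the fibroblast-like cells of all 3 days.

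The samples were wound tissue of C57BL/6J mice taken on Day 3, Day 7 and Day 14 after injury, with 1 single-cell library per day. According to the study's methods the mice were male adults with full-thickness excisional punch wounds in the back skin, whereas the series text names an incisional injury; the methods do not describe an unwounded library, and none was analysed here. The tissue was dissociated with an enzyme kit and red blood cells were lysed, and the 3' ends of transcripts were counted per cell barcode. Because a day is 1 library of pooled tissue, no difference between days could be tested: every interval in brackets is a 95% interval that covers counting error only, and mice, wounds and library preparation cannot be told apart from the day.

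The libraries held 38133650, 120940799 and 112713257 UMIs over 5158, 22924 and 16611 barcodes, and 4360, 19590 and 13510 cells were kept on Days 3, 7 and 14. Cells were clustered without 233 cell cycle genes, and clusters were named from standard markers. Fibroblast-like cells numbered 392, 4104 and 6583 and held UMIs of all 8 fibroblast markers. Macrophage-like cells numbered 2718, 9498 and 3206 and held all 10 macrophage markers. UMIs of every marker also occurred in the other class. The fibroblast markers together stood in macrophage-like cells at 0.618%, 3.03% and 4.05% of their fibroblast-like level on the 3 days. The macrophage markers stood in fibroblast-like cells at 0.882%, 2.13% and 0.472% of their macrophage-like level. A cluster of 9, 1834 and 97 cells led by *Tnn*, *Col12a1*, *Tnc*, *Acta2* and *Lrrc15* also held all 8 fibroblast markers but was left unnamed, because *Crabp1* of the mesenchymal list was among its leading genes; it is called the *Tnn*-led cluster. Median depth differed widely, from 44800.5 UMIs per fibroblast-like cell on Day 3 to 10023 and 10242 on Days 7 and 14, and was 4058.5, 2535 and 3512 in macrophage-like cells. The libraries shared 43 barcodes between Days 3 and 7, 19 between Days 3 and 14 and 111 between Days 7 and 14.

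A dividing cell first copies its DNA in S phase and then separates the copies in mitosis. Before S phase the MCM helicase is loaded on DNA; E2F transcription factors switch on the replication genes, and cyclin E with its kinase starts copying. Genes of G2 and mitosis come on later, through the CHR promoter element and neighbouring CCAAT boxes, and their proteins are broken down as the cell exits mitosis. In skin wounds, fibroblasts, endothelial cells, pericytes, keratinocytes and macrophages are all known to divide locally, whereas neutrophils arrive as cells that have left the cycle.

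The promoters of the members are shown because the CHR and E2F elements are known from genes of these lists; no relation between a promoter and a gene's values was tested. RefSeq (GRCm38.p6) promoter windows of 300 bases, 250 before and 50 after the start, were found for 32 of the 41 members. The CHR letters TTTGAA or TTCGAA, read on both strands, stood in 14 of 18 mitotic and 3 of 13 S-phase windows, against 19.2% of all 32851 windows. CCAAT stood in 16 of 18 mitotic and 10 of 13 S-phase windows, against 37.4% of all windows. The E2F letters TTTCCCGC, TTTCGCGC, TTTGCCGC or TTTGGCGC stood in 6 of 13 S-phase windows but in 1 of 18 mitotic windows, that of *Cdk1*, against 2.26% of all windows. A match describes these letters and is not a site shown to be bound. The 170 bases before the start are printed 5′ to 3′ for 3 mitotic genes, *Cdc20* at chr4:118437344-118437513 (minus strand), *Cdk1* at chr10:69352913-69353082 (minus strand), *Ube2c* at chr2:164769759-164769928 (plus strand), and for the helicase genes *Mcm5* at chr8:75109339-75109508 (plus strand) and *Mcm6* at chr1:128359706-128359875 (minus strand), with matches to the 3 motifs on either strand in capitals and overlapping E2F matches run together.
Cdc20: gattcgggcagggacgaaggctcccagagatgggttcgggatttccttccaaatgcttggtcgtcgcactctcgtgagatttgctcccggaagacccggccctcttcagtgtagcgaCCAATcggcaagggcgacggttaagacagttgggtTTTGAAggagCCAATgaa
Cdk1: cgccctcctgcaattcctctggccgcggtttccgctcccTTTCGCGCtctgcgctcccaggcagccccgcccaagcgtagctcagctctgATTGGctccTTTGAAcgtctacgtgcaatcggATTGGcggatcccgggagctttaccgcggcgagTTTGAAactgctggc
Ube2c: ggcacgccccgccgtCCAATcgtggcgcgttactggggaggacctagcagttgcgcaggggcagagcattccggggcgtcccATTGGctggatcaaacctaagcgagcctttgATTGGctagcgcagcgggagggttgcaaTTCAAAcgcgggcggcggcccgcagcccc
Mcm5: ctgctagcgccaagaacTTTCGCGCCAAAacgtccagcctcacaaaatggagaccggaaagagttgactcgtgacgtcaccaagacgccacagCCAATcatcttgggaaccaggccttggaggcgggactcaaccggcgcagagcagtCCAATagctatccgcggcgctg
Mcm6: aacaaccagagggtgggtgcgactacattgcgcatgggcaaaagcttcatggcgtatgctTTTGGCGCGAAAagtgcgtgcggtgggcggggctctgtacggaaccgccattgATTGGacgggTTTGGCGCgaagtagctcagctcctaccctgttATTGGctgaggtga
In *Cdc20* and *Cdk1* the CHR letters (TTTGAA) lie close to the start with CCAAT boxes near them, and in *Ube2c* they are read on the other strand (TTCAAA). *Mcm5* and *Mcm6* hold E2F matches and CCAAT boxes but no CHR letters.

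In fibroblast-like cells both lists were highest on Day 3 and lower at each later day. The 22 mitotic genes together took 1414 (1397 to 1431) UMIs per 1000000 UMIs of the class (CPM) on Day 3, 235 (230.2 to 239.5) CPM on Day 7 and 51.6 (49.9 to 53.3) CPM on Day 14. The 16 S-phase genes took 868 (855 to 881), 206 (202 to 211) and 111 (109 to 114) CPM. Their log2 ratios were, for the mitotic list, -2.59 (-2.62 to -2.56) for Day 7 over Day 3 and -2.19 (-2.24 to -2.13) for Day 14 over Day 7, and the S-phase log2 ratio was -2.07 (-2.11 to -2.04) and then -0.89 (-0.93 to -0.85). All 16 S-phase and all 22 mitotic genes were at least 2-fold lower on Day 7 than on Day 3, while 12.5% of the 13881 genes that had at least 20 UMIs over both libraries were; the median log2 ratio was -2.80 for mitotic genes, -1.92 for S-phase genes and -0.18 for all those genes. From Day 7 to Day 14, 22 of 22 mitotic genes but 7 of 16 S-phase genes were at least 2-fold lower, against 8.25% of 15039 genes. The clusters that hold most fibroblast-like cells differ by day: cluster 18 (*Cxcl5*, *Serpinb2*, *Saa3*) held 89.0% of them on Day 3, cluster 5 (*H19*, *C3*, *Cfb*) 46.0% on Day 7 and cluster 0 (*Mgp*, *Cilp*, *Fbln7*) 56.3% on Day 14. The mitotic list took 54.1 and 119 CPM in neutrophil-like cells of Days 3 and 7, no less than in fibroblast-like cells of Day 14. Without *Kif23* these levels were 29.2 and 71.0 CPM, beside 49.8 CPM in fibroblast-like cells of Day 14. The part of free RNA in the Day 14 values was not tested.

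The size of the Day 7 change depends on where the *Tnn*-led cluster is counted. With it joined to the fibroblast-like cells, the mitotic list took 1439, 395 and 55.2 CPM, and the log2 ratios were -1.87 (-1.89 to -1.84) and -2.84 (-2.89 to -2.79); this joining was chosen after the data were seen. At least 2-fold lower were then 21 of 22 mitotic and 15 of 16 S-phase genes on Day 7 against Day 3, where 10.3% of all genes were, and 22 and 9 on Day 14 against Day 7, where 10.5% were. The Day 7 over Day 3 mitotic ratio was also nearer 0 with a mitochondrial limit of 5% (-1.84) and with cell cycle genes allowed in clustering (-1.57), and the Day 14 over Day 7 ratio was then -2.85 and -3.11. Both ratios stayed below 0 under each of the 15 alternative settings tried.

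**Figure D1:**
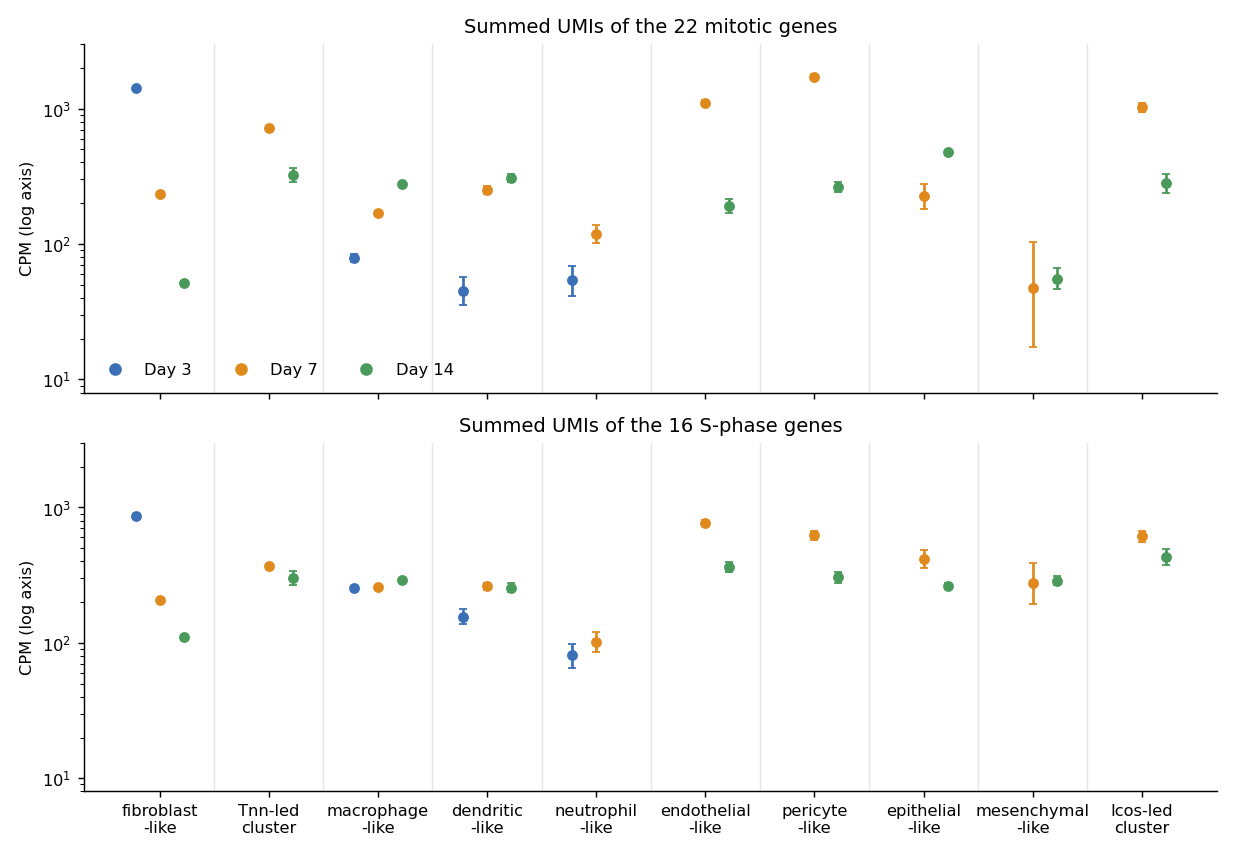
Summed level of the 22 mitotic genes (top) and the 16 S-phase genes (bottom) in each cell class with at least 50 cells, as CPM on a log axis, for Day 3, Day 7 and Day 14; points are 1 library each and bars are 95% counting intervals. Fibroblast-like cells go down from 1414 to 51.6 CPM for mitotic genes, while macrophage-like and dendritic cell-like cells go up. Neutrophil-like cells also go up from Day 3 to Day 7.

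Of the mitotic genes, *Top2a*, the topoisomerase that untangles sister DNA, stood highest on Day 3. It was at 194, 27.3 and 4.51 CPM in fibroblast-like cells on Days 3, 7 and 14. *Mki67*, which coats mitotic chromosomes and is the usual marker of dividing cells, was at 89.99, 29.1 and 4.91 CPM. The Day 7 value was thus -1.63 (-1.74 to -1.52) on the log2 scale for *Mki67* but -2.83 (-2.92 to -2.73) for *Top2a*, and *Mki67* was the mitotic gene with the most UMIs on Day 7.

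The kinase *Cdk1*, which drives entry into mitosis, and its B cyclins lay near the mitotic median on Day 7, and *Ccna2* lay furthest below it. *Cdk1* was at 96.3, 15.2 and 2.82 CPM. *Ccna2*, cyclin A2, was at 73.6, 6.30 and 1.28 CPM, and its Day 7 over Day 3 log2 ratio of -3.55 (-3.74 to -3.36) was the lowest of the 22. The B cyclins *Ccnb1* and *Ccnb2* gave -2.81 (-3.00 to -2.61) and -2.68 (-2.88 to -2.48) for the same days, and from Day 7 to Day 14 *Ccnb2* was the mitotic gene that differed least, at -1.50 (-1.78 to -1.21). Annotated copies exist for *Ccnb1* and *Ccnb2*, as for *Pcna*, *Tyms* and *Stmn1*, so that reads may be split between them and their counts are uncertain.

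The machinery that ends mitosis was abundant on Day 3. *Ube2c*, the ubiquitin-conjugating enzyme of the anaphase-promoting complex, was at 162, 21.6 and 4.75 CPM, and its activator *Cdc20* was at 57.4, 8.25 and 1.73 CPM. *Birc5* and *Aurkb*, partners in the chromosomal passenger complex, were at 97.8, 15.4 and 3.62 CPM and at 28.8, 3.89 and 0.885 CPM. These genes, 2 of them with the CHR-bearing promoters printed above, were each at least 2-fold lower at each step.

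Spindle and kinetochore genes followed the same order of days. The mitotic kinases *Plk1* and *Aurka* were at 38.4, 3.68 and 0.581 CPM and at 24.0, 2.69 and 0.624 CPM; *Tpx2*, which activates Aurora A on the spindle, was at 70.5, 9.32 and 1.84 CPM. The checkpoint genes *Bub1* and *Bub1b* stood at 19.8 and 21.6 CPM on Day 3 and at 0.595 and 1.12 on Day 14. The kinetochore genes *Cenpf* and *Cenpe* stood at 54.9 and 61.1 on Day 3, and *Cenpf* was, after *Mki67*, the mitotic gene with the smallest Day 7 difference, at -1.74 (-1.88 to -1.60). The motors *Kif11*, *Kif20a* and *Kif23* and the microtubule binders *Prc1* and *Nusap1*, which build the spindle or its midzone, gave log2 ratios from -3.00 (*Kif20a*) to -2.15 (*Prc1*) on Day 7 and from -2.52 (*Kif20a*) to -1.59 (*Kif23*) on Day 14.

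The S-phase genes separated from each other more than the mitotic genes did. From Day 7 to Day 14 the mitotic log2 ratios lay between -2.66 and -1.50, and the S-phase ratios between -2.58 and -0.02; 12 of 16 S-phase genes lay above the highest mitotic gene. The exceptions were *Mcm5* at -2.58 (-3.03 to -2.14), *Ccne2* at -2.46 (-2.88 to -2.06), *Pclaf* at -2.12 (-2.33 to -1.92) and *Mcm2* at -2.05 (-2.29 to -1.82). Nearest to 0 were *Cdc6*, which loads the helicase, at -0.02 (-0.45 to 0.43), *Ccne1* (cyclin E1) at -0.10 (-0.37 to 0.18), and *Pcna*, the sliding clamp of the DNA polymerases, at -0.24 (-0.33 to -0.15). In neutrophil-like cells of Days 3 and 7, *Pcna* stood at 61.85 and 54.18 CPM, above its fibroblast-like 40.7 and 34.4 CPM of Days 7 and 14. *Cdc6* stood there at 4.30 and 1.53 CPM, beside 1.69 and 1.67, and *Ccne1* at 0 and 1.53 CPM, beside 4.26 and 3.99. The part of such a level in these ratios was not tested.

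The 6 helicase subunits did not move as 1 group. *Mcm5* was at 45.2, 4.76 and 0.798 CPM, *Mcm2* at 38.2, 12.4 and 2.99 CPM and *Mcm4* at 46.7, 17.4 and 11.5 CPM, so that subunits at like levels on Day 3 were far apart on Day 14. *Mcm6*, whose E2F-bearing promoter is printed above beside that of *Mcm5*, was at 55.1, 17.4 and 6.47 CPM. *Mcm3* and *Mcm7* lay between, with Day 14 over Day 7 log2 ratios of -1.49 (-1.70 to -1.28) and -0.99 (-1.16 to -0.83). Of the helicase partners, *Cdc45* was at 22.9, 5.51 and 3.66 CPM and *Gins2* at 17.1, 6.28 and 3.54 CPM, and *Cdc6* at 9.72, 1.69 and 1.67 CPM.

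The 2 subunits of ribonucleotide reductase, which makes DNA building blocks, also parted. The large subunit *Rrm1* was at 106, 27.2 and 12.4 CPM, and the small subunit *Rrm2* at 65.6, 6.28 and 4.98 CPM; the Day 7 over Day 3 log2 ratio of *Rrm2*, -3.38 (-3.58 to -3.19), was the lowest of the S-phase genes, and its Day 14 over Day 7 ratio was -0.33 (-0.57 to -0.10). *Tyms*, thymidylate synthase, was at 35.1, 12.3 and 7.85 CPM. *Pclaf*, which binds the clamp, was at 148, 17.0 and 3.90 CPM, and *Pcna* itself at 149.6, 40.7 and 34.4 CPM. The cyclin E genes were lower than these on Days 3 and 7, *Ccne1* at 9.36, 4.26 and 3.99 CPM and *Ccne2* at 21.8, 5.37 and 0.973 CPM. On Day 14 *Ccne1* was close to *Pclaf*. *Pcna* held 17.2%, 19.7% and 30.9% of the S-phase UMIs on the 3 days.

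**Figure D2:**
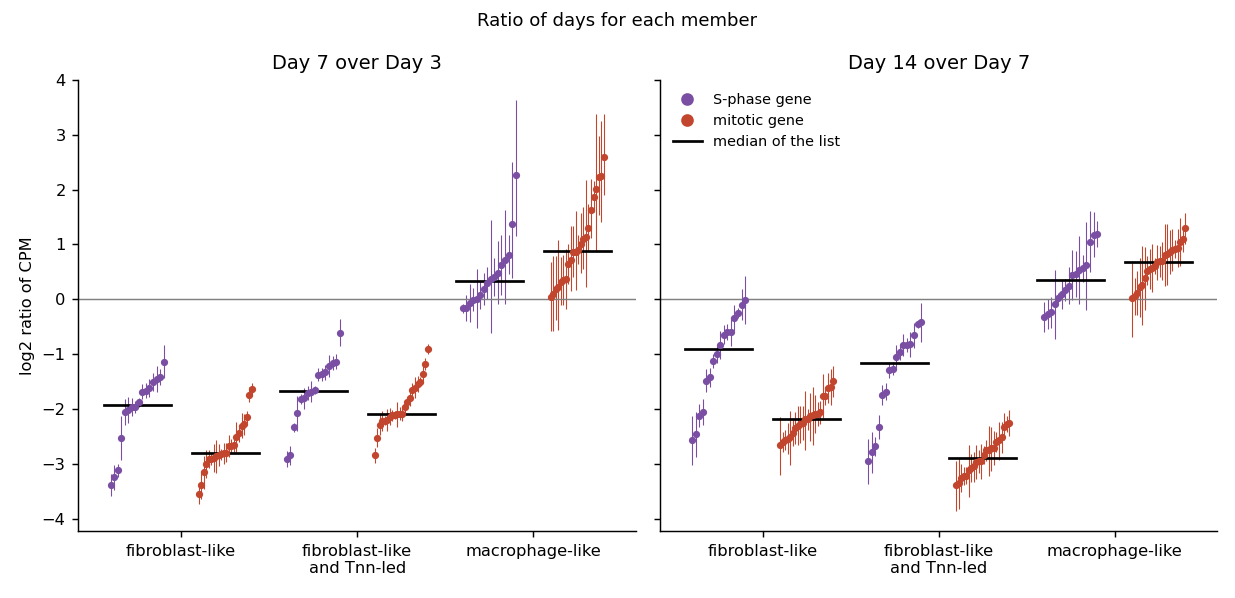
Log2 ratio of CPM for each S-phase gene (purple) and mitotic gene (red), sorted within each list, in fibroblast-like cells, in fibroblast-like cells with the Tnn-led cluster, and in macrophage-like cells; thin bars are 95% counting intervals and black lines are list medians. In fibroblast-like cells all points of Day 7 over Day 3 lie below -1, and 12 of 16 S-phase genes of Day 14 over Day 7 lie above the highest mitotic gene.

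Of the 3 members outside both lists, *Stmn1* and *Hmgb2* lay within the range of the S-phase genes at each step and *Ccnd1* did not. *Stmn1*, which destabilises microtubules, was at 81.8, 35.2 and 17.2 CPM in fibroblast-like cells, and *Hmgb2*, a chromatin protein, at 295, 53.7 and 29.1 CPM. *Ccnd1*, the D cyclin that answers growth signals in G1, went the other way: it was at 22.9, 18.9 and 51.5 CPM, with a Day 14 over Day 7 log2 ratio of 1.45 (1.34 to 1.56). Its Day 7 over Day 3 ratio of -0.28 (-0.45 to -0.11) was 0.16 with a mitochondrial limit of 5% and 0.46 with classes set cell by cell.

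Within the fibroblast-like class, mitotic RNA was unevenly placed. Cluster 18, the *Cxcl5* cluster of Day 3, was at 1394 CPM on Day 3 and 705 on Day 7, a log2 ratio of -0.98 (-1.03 to -0.94), and on Day 7 it made up 10.2% of the class but held 40.9% of its mitotic UMIs. Cluster 5 was at 193 CPM on Day 7 and 11.3 on Day 14 (-4.09 (-5.05 to -3.29)), and cluster 4 (*Akr1c18*, *Pla1a*, *Pi16*) at 103 and 14.7 (-2.81 (-3.08 to -2.55)). Cluster 0, low already on Day 7, was at 41.1 and 31.8 (-0.37 (-0.57 to -0.17)). Of the Day 14 mitotic UMIs of the class, 40.7% lay in cluster 23 (*Col18a1*, *Cldn1*, *Ptn*), which was 4.69% of the cells and stood at 433 CPM (411 to 456). The *Tnn*-led cluster, rich in the contractile gene *Acta2*, was at 724 (712 to 735) CPM on Day 7 and 323 (288 to 362) on Day 14, so that on Day 7 it was close to cluster 18 and above clusters 0, 4 and 5; clusters 10 and 23 had 42 and 27 cells on that day and are not given for it.

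Counted by cells, each thinned to 500 UMIs so that depth is equal, 14.0% (10.8% to 17.9%) of fibroblast-like cells held at least 2 mitotic UMIs on Day 3, followed by 1.53% (1.18% to 1.96%) of those of Day 7 and 0.334% (0.21% to 0.505%) of those of Day 14. In the *Tnn*-led cluster the share was 6.92% (5.80% to 8.18%) on Day 7 and 4.12% (1.14% to 10.2%) on Day 14. Without thinning the fibroblast-like shares were 71.2%, 10.1% and 2.57%. Neutrophil-like cells, which should not divide and are set beside the others for the level that free RNA can give, were at 0.233% (0.0282% to 0.838%) on Day 3 and 0.122% (0.0147% to 0.439%) on Day 7 (median depths of 1228.5 and 711 UMIs), below the fibroblast-like share on both days. *Kif23* made up 46.0% and 40.4% of their mitotic UMIs on those days, and a share of cells without it was not computed. The 21 neutrophil-like cells of Day 14 are too few for a share. The Day 14 shares thus have no neutrophil-like level from their own library. The fibroblast-like interval of Day 14 overlaps the neutrophil-like intervals of Days 3 and 7. A cluster of low-depth barcodes was led by hemoglobin genes. Its shares were 17.6% (10.9% to 26.1%), 4.86% (2.8% to 7.78%) and 1.11% (0.304% to 2.83%) on Days 3, 7 and 14. Each was above the fibroblast-like share of its day, with overlapping intervals on Days 3 and 14. Whether these barcodes are cells or free RNA was not tested. At 2000 UMIs, 13 of 6462 fibroblast-like cells of Day 14 held 10 or more mitotic UMIs.

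**Figure D3:**
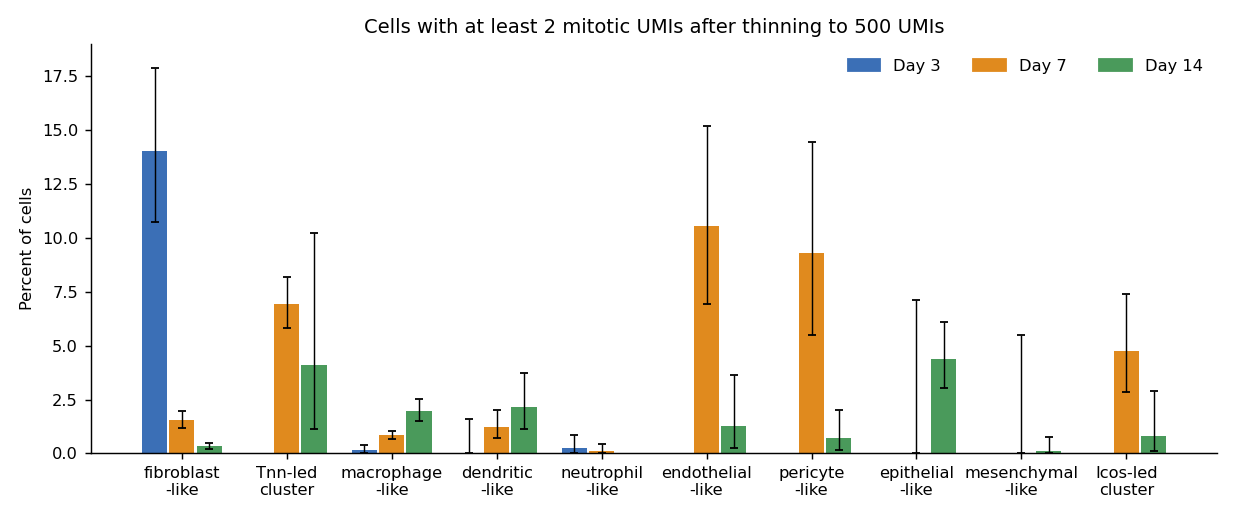
Percent of cells with at least 2 mitotic UMIs after every cell was thinned to 500 UMIs, by class and day; bars start at 0 and error bars are 95% Clopper-Pearson intervals that cover counting error only. Fibroblast-like cells of Day 3 reach 14.0%, endothelial cell-like and pericyte-like cells of Day 7 reach 10.6% and 9.29%, and neutrophil-like cells stay at or under 0.233%.

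S-phase and mitotic UMIs shifted against each other with time. There were 1.63 (1.60 to 1.66) mitotic UMIs per S-phase UMI in fibroblast-like cells on Day 3, then 1.14 (1.11 to 1.17) by Day 7 and 0.463 (0.445 to 0.482) by Day 14. With the *Tnn*-led cluster joined these were 1.64, 1.52 and 0.485, so that little of the Day 7 difference remained. With cells thinned to 2000 UMIs, 18.9% of 381 fibroblast-like cells held at least 2 UMIs of both lists on Day 3, 15.5% of S-phase genes alone and 12.1% of mitotic genes alone. On Day 14 the shares were 0.309%, 2.27% and 0.402% of 6462 cells, so that most cells past the limit held S-phase RNA alone. At that depth 2 of 106 neutrophil-like cells of Day 3 (1.89%) held S-phase genes alone, 2 (1.89%) held mitotic genes alone and 0 held both. Neutrophil-like cells took 80.75 and 102.3 CPM of S-phase genes on Days 3 and 7, beside 111 CPM in fibroblast-like cells of Day 14. *Pcna* made up 76.6% and 53.0% of those neutrophil-like UMIs. The part of such a level in the S-phase values was not tested. Without thinning, the 5% of fibroblast-like cells with the most mitotic UMIs held 41.4% of them on Day 3, 88.2% on Day 7 and 83.4% on Day 14, against 24.2%, 41.2% and 28.4% for S-phase UMIs. Depth per cell was not matched in these shares, and 18.4%, 72.3% and 86.0% of the cells held no mitotic UMI, so that the days cannot be compared by them.

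Cells with mitotic RNA were set beside the other cells of their class, at 2000 UMIs per cell and as a description, since the cells come from the same library. Among Day 7 fibroblast-like cells, the 151 with at least 2 mitotic UMIs held more of the contractile genes *Acta2* and *Tagln* than the 3667 with none, at log2 ratios of 2.22 (2.07 to 2.37) and 2.30 (2.06 to 2.55), while *Postn* gave 0.07 (0.04 to 0.10) and *Col1a1* -0.35 (-0.37 to -0.34). In the *Tnn*-led cluster *Acta2* and *Tagln* gave 1.00 (0.95 to 1.06) and 1.04 (0.95 to 1.13). *Stmn1* and *Hmgb2* were far higher in the mitotic cells, at 5.25 (5.09 to 5.42) and 3.91 (3.78 to 4.03), and *Ccnd1* was not, at -0.77 (-1.40 to -0.21). Of the kinase inhibitors, *Cdkn2c* (2.45 (2.15 to 2.74)) and *Cdkn2d* (2.14 (1.88 to 2.38)) were higher in mitotic cells and *Cdkn1c*, an inhibitor found in resting cells, was lower (-1.24 (-1.51 to -0.99)). These cells lie in different clusters, since cluster 18 held 40.9% and cluster 0 2.53% of the Day 7 mitotic UMIs of the class, and a difference within clusters was not separated from that. Mitotic cells were deeper before thinning, with a median of 14855 UMIs against 9951.

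Macrophage-like cells ran opposite to fibroblast-like cells in their mitotic genes and differed less in their S-phase genes. The mitotic list took 78.9 (74.0 to 84.1) CPM on Day 3, 169.5 (165 to 174) CPM on Day 7 and 279 (269.9 to 289) CPM on Day 14, with log2 ratios of 1.10 (1.00 to 1.20) and 0.72 (0.66 to 0.78). The S-phase list took 256 (247 to 265), 259 (253 to 265) and 289.7 (280.3 to 299) CPM, with log2 ratios of 0.02 (-0.04 to 0.08) and 0.16 (0.10 to 0.22), and 55.0%, 48.6% and 44.1% of its UMIs were *Pcna*. By gene, the median log2 ratios were 0.33 and 0.35 for S-phase genes, with 12 of 16 above 0 at each step, and 0.88 and 0.69 for mitotic genes, beside 0.012 and -0.12 for all genes tested. At least 2-fold higher on Day 7 than on Day 3 were 10 of 22 mitotic and 2 of 16 S-phase genes, against 12.6% of 12462 genes; on Day 14 against Day 7 these were 3 and 3, against 5.57% of 12772 genes. All 22 mitotic ratios were above 0 at each step. The share of all genes above 0 is not given. The difference between the 2 classes was not tested.

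The same genes can be read in both classes. *Mki67* was at 9.92, 36.3 and 55.5 CPM in macrophage-like cells on Days 3, 7 and 14, and *Top2a* at 12.5, 23.3 and 43.9 CPM. *Prc1*, which bundles the spindle midzone, was at 1.48, 8.96 and 14.5 CPM and had the highest Day 7 over Day 3 log2 ratio of the mitotic genes, 2.60 (1.91 to 3.38). *Birc5* was at 4.18, 7.58 and 18.6 CPM and had the highest Day 14 over Day 7 ratio, 1.29 (1.01 to 1.57). *Cdk1*, *Ube2c* and *Cdc20* were at 5.0, 6.24 and 10.2 CPM, at 4.51, 11.1 and 23.7 CPM and at 0.574, 2.31 and 4.07 CPM, so that levels stayed far below those of fibroblast-like cells of Day 3.

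Among S-phase genes of macrophage-like cells, *Pcna* was at 141, 126 and 128 CPM and *Mcm3* at 22.6, 22.6 and 25.5 CPM, with little difference between days. *Pclaf* and *Rrm2* were higher on Day 14 than on Day 7, at 1.19 (0.95 to 1.43) and 1.18 (0.77 to 1.59) on the log2 scale, as was *Cdc6* at 1.05 (0.49 to 1.61). *Ccne2*, with 0.574 CPM on Day 3 and 2.76 on Day 7, gave 2.27 (1.15 to 3.63). Of the members outside the lists, *Stmn1* was at 18.9, 42.4 and 109.8 CPM, *Hmgb2* at 193, 111 and 155 CPM and *Ccnd1* at 47.2, 45.8 and 96.8 CPM; *Ccnd1* was thus more than 2-fold higher on Day 14 than on Day 7 in both classes.

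**Figure D4:**
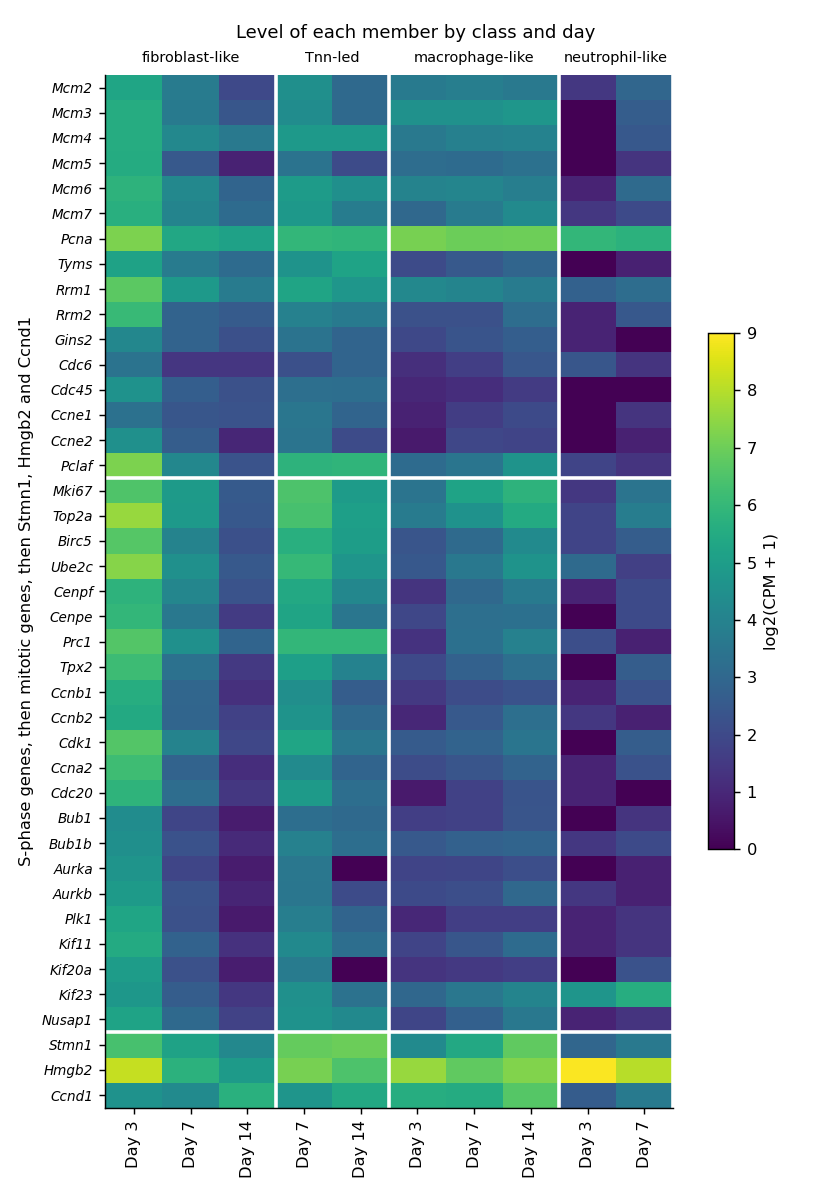
Level of each of the 41 members as log2(CPM + 1), by class and day, with S-phase genes on top, mitotic genes below and Stmn1, Hmgb2 and Ccnd1 last; rows are best compared from left to right. The fibroblast-like column of Day 3 is the brightest of that class for every member but Ccnd1, and Hmgb2, Pcna and Kif23 stand out in neutrophil-like cells.

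Free RNA has to be set beside these low levels. Neutrophil-like cells took 54.1 (41.6 to 69.2) and 119 (101 to 139) CPM of mitotic genes on Days 3 and 7, a log2 ratio of 1.14 (0.71 to 1.58), which is as large as that of macrophage-like cells. *Kif23* alone stood at 24.9 and 48.1 CPM against 7.05 and 11.0 in macrophage-like cells; without *Kif23*, an alternative chosen after the data were seen, neutrophil-like cells were at 29.2 and 71.0 CPM and macrophage-like cells at 71.9 and 158. The 8 fibroblast markers together stood at 1.22% and 8.20% of their fibroblast-like level in neutrophil-like cells on Days 3 and 7, and at 0.618%, 3.03% and 4.05% in macrophage-like cells on Days 3, 7 and 14. Their part in the mitotic values was not tested. A cluster of 108, 329 and 359 low-depth barcodes led by hemoglobin genes took 1358, 365 and 80.7 CPM of mitotic genes, close to the fibroblast-like order of days.

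Thinned to 500 UMIs, 0.147% (0.0401% to 0.376%) of macrophage-like cells held at least 2 mitotic UMIs on Day 3, which is no higher than the neutrophil-like share of that day, with overlapping intervals, and was not told from it at this depth. The level differed between clusters on that day, with cluster 1 at 456 and cluster 6 at 207 CPM against 54.1 in neutrophil-like cells. Clusters 2 and 8, with 1586 and 697 cells, were at 47.2 and 44.4 CPM. Past the same limit were 2 of 242 cells of cluster 1 (0.826% (0.1% to 2.95%)) and 0 of 131 of cluster 6 (Clopper-Pearson interval of 0% to 2.78%). These intervals overlap the neutrophil-like one. On Days 7 and 14 the macrophage-like shares were 0.853% (0.678% to 1.06%) and 1.97% (1.51% to 2.51%), and without thinning the shares of the 3 days were 2.87%, 3.43% and 6.27%. Mitotic UMIs per S-phase UMI went from 0.308 (0.287 to 0.332) through 0.654 (0.63 to 0.679) to 0.964 (0.919 to 1.01), the reverse of the order in fibroblast-like cells. In neutrophil-like cells the same value was 0.670 (0.479 to 0.932) on Day 3 and 1.16 (0.918 to 1.48) on Day 7. The top 5% of macrophage-like cells, not thinned, held 66.2%, 77.9% and 85.9% of the mitotic UMIs.

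Most of the Day 14 mitotic UMIs of macrophage-like cells lay in few clusters. Cluster 13 (*Retnla*, *Lyz1*) was at 516 CPM on Day 7 and 461 on Day 14, a log2 ratio of -0.16 (-0.28 to -0.05), and went from 4.06% to 19.9% of the class and from 20.5% to 47.5% of its mitotic UMIs. Cluster 3 (*Slamf7*, *Ccl8*, *Il10*), the main cluster of Day 14 with 44.8% of the class, gave 0.19 (0.04 to 0.34), and cluster 6 (*Cbr2*, *Ednrb*, *Cd163*) gave -0.13 (-0.37 to 0.13) and then 0.51 (0.35 to 0.68). The main cluster of Day 3, cluster 2 (*Arg1*, *Mmp12*, *Spp1*) with 58.4% of the class, was at 47.2 CPM and on Day 7 at 64.5 (0.45 (0.20 to 0.70)). Cluster 1 (*Cd36*, *Hmox1*), main on Day 7 with 36.9%, was higher on Day 3 (456 CPM in 242 cells) than on Day 7 (144 CPM), against the order of the class. Among Day 7 macrophage-like cells, those with at least 2 mitotic UMIs held less *Arg1* than those with none (-0.95 (-1.10 to -0.80)), with *Mrc1* at -0.06 (-0.15 to 0.03) and *Cd74* at 0.05 (-0.01 to 0.10), and more *Ccnd1* (1.21 (0.88 to 1.52)). These cells too lie in different clusters, and a difference within clusters was not separated from that.

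Both vessel classes, endothelial cell-like and pericyte-like, were high in mitotic RNA on Day 7 and lower on Day 14; with 13 and 10 cells on Day 3 they are not given for that day. Pericyte-like cells took 1725 (1651 to 1802) and 264 (241 to 289) CPM of mitotic genes (-2.71 (-2.85 to -2.56) on the log2 scale), and endothelial cell-like cells 1106 (1058 to 1155) and 192 (169.5 to 216) (-2.53 (-2.72 to -2.35)). All 22 mitotic genes were at least 2-fold lower on Day 14 in both classes, against 14.5% and 11.4% of all genes tested there. Not thinned, 10 of 183 pericyte-like cells of Day 7 held 61.1% of the mitotic UMIs, and 55.7% of the cells held none. For endothelial cell-like cells of Day 7, 12 of 237 held 57.0%, and 47.7% held none. Within the endothelial class, 52 Day 7 cells of cluster 26 (*Ccl21a*, *Mmrn1*, *Prox1*) stood at 2377 CPM, with 23.1% (12.5% to 36.8%) of cells past 2 mitotic UMIs, and cluster 22 at 684 on Day 7 and 138 on Day 14.

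Dendritic cell-like and epithelial cell-like cells had their highest mitotic level on Day 14. Dendritic cell-like cells took 45.3 (35.4 to 57.0), 252 (236 to 268) and 307 (286 to 329) CPM, with log2 ratios of 2.47 (2.13 to 2.84) and 0.29 (0.15 to 0.42). Their *Cd209a* cluster 11 went from 45.5 through 326 to 369 CPM, and the *Ccr7* cluster 21 from 37.1 through 92.5 to 75.9. None of 232 dendritic cell-like cells held 2 mitotic UMIs at 500 UMIs on Day 3 (a count of 0 allows up to 1.29%), and on Days 7 and 14 1.23% (0.692% to 2.03%) and 2.16% (1.12% to 3.75%) did. Epithelial cell-like cells took 225 (182 to 275) CPM of mitotic genes in 50 cells of Day 7 and 474 (456 to 493) in 756 cells of Day 14 (1.08 (0.78 to 1.39)), while their S-phase list went the other way (-0.66 (-0.89 to -0.42)). These ratios rest on few cells, since 3 of the 50 cells of Day 7 held 73.7% of its mitotic UMIs and 66.0% held none.

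Mesenchymal cell-like cells (*Bmp4*, *Prlr*, *Enpp2*) took 55.5 (46.2 to 66.0) CPM of mitotic genes in 747 cells of Day 14. Fibroblast-like cells of that day were at 51.6 CPM. Their S-phase lists differed more, at 288 (266 to 311) CPM in mesenchymal cell-like and 111 CPM in fibroblast-like cells. *Pcna* made up 42.35% of the mesenchymal cell-like S-phase UMIs. The cluster led by *Il2rb* and *Icos*, left unnamed, was at 1023 (949 to 1101) and 280.1 (236 to 329.6) CPM of mitotic genes on Days 7 and 14 in 380 and 246 cells.

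The shares of the classes in the mitotic RNA of the wound changed with the day. On Day 3, 87.7% (87.3% to 88.0%) of all mitotic UMIs lay in fibroblast-like cells, which were 8.99% of the cells and 54.9% of all UMIs, and 3.05% in macrophage-like cells. On Day 7 the *Tnn*-led cluster held 41.9% (41.4% to 42.4%), fibroblast-like cells 27.9%, macrophage-like cells 12.6%, and endothelial cell-like and pericyte-like cells 5.60% and 5.68%. On Day 14 fibroblast-like cells held 29.1% (28.3% to 29.96%), macrophage-like cells 28.1% (27.3% to 28.9%) and epithelial cell-like cells 20.6%. With the *Tnn*-led cluster joined to them, fibroblast-like cells held 91.1%, 69.8% and 31.6% on Days 3, 7 and 14. That was the largest share of any class on each day. Over all kept cells the mitotic list took 885, 358 and 125 CPM, but its Day 7 over Day 3 log2 ratio of -1.30 (-1.33 to -1.28) became 0.035 when each cell counted alike.

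**Figure D5:**
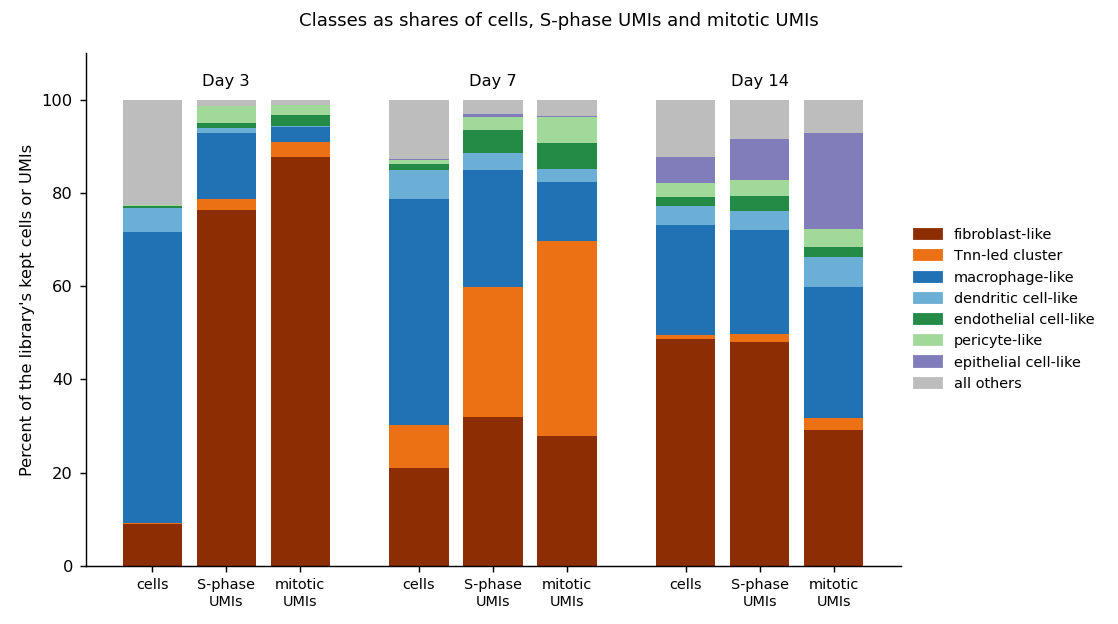
Share of each class in the kept cells, the S-phase UMIs and the mitotic UMIs of each library, in percent; the 3 bars of a day each add to 100%. Fibroblast-like cells are 8.99% of cells but 87.7% of mitotic UMIs on Day 3, and on Day 14 they are 48.7% of cells and 29.1% of mitotic UMIs.

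Other genes of the pathway, not among the 41, were counted in the same way. In fibroblast-like cells 43 of 45 further mitosis genes and 25 of 30 further replication genes were at least 2-fold lower on Day 7 than on Day 3, against 12.5% of all genes (medians of -2.62 and -1.80), and 39 and 17 on Day 14 than on Day 7, against 8.25% (medians of -1.98 and -1.08). The lowest ratios of Day 7 were those of *Nek2* at -4.27 (-4.88 to -3.72) and *Orc1*, of the origin recognition complex, at -4.23 (-5.19 to -3.40), and *Pttg1* (securin) stood apart at 0.23 (0.07 to 0.39) and then 0.70 (0.60 to 0.80). In macrophage-like cells 21 of 45 mitosis genes were at least 2-fold higher on Day 7, against 12.6% of all genes, and 5 on Day 14, against 5.57%.

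Upstream regulators were mixed. *Cdkn1c*, which holds cells out of the cycle, was at 23.3, 126 and 101 CPM in fibroblast-like cells on Days 3, 7 and 14 (2.44 (2.30 to 2.58) and -0.33 (-0.38 to -0.27) on the log2 scale), and *Cdkn2b* at 1.07, 3.51 and 8.27 CPM. *Cdkn1a* gave 0.16 (0.10 to 0.21) and 0.59 (0.56 to 0.62), and *Cdkn2a*, 0.716, 0.773 and 3.88 CPM, was higher on Day 14 (2.33 (1.80 to 2.89)). In all, 2 of 10 kinase inhibitors and pocket proteins were at least 2-fold higher on Day 7 than on Day 3, where 11.3% of all genes were, and 2 (*Rbl1* and *Cdkn2c*) at least 2-fold lower, where 12.5% were. *Cdk2*, the partner of cyclin E, was lower on Day 7 at -2.04 (-2.23 to -1.86), and of the E2F factors the late repressors *E2f8* and *E2f7* were the lowest, at -3.18 (-3.64 to -2.75) and -1.42 (-1.67 to -1.18).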

How the data were processed

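Wound cells of 3 libraries were measured, 1 each for Day 3, Day 7 and Day 14. The authors deposited raw UMI counts per gene and barcode for each library; per the submitters' processing notes they were made with Cell Ranger 6.0.0 on mm10, and they were not normalised. Each day was grouped by its labelled time, and no column of the files was left unused. Cells were kept with at least 200 genes, 500 UMIs and at most 10% mitochondrial UMIs; simulated doublets were scored within each library and the highest scores removed, up to a share of 0.5 of a rate of 0.8% per 1000 barcodes (92, 1978 and 962 cells). Doublets made of cells of 1 class may remain.

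Counts were scaled to 10000 per cell and logged for 2000 variable genes, without cell cycle genes; 30 principal components and 15 neighbours gave 30 clusters (leidenalg 0.10.2, resolution 1). A cluster took the name of a class from at least 3 detected markers. UMIs were then summed per class and library and divided by the class total (CPM, per 1000000), with exact Poisson intervals; intervals of log2 ratios are exact and conditional on the sum of both counts, and those of shares are Clopper-Pearson, all at 95% (scipy 1.17.1, numpy 2.4.6, pandas 2.3.3). Share limits at 0 cells rest on 3 counts. Ratios and counts of 2-fold differences use genes with at least 20 UMIs over both libraries, and classes under 50 cells in a library are not given. The ratio step was tested on simulated data. Because cells are not replicates and each day is 1 library, no p-value was computed. The 15 alternatives covered scaling, filters, doublets, clustering and naming.

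All 41 members are named; of other cell cycle genes, the extremes of a list and the regulators are named. The members and lists were chosen with earlier results of these data known. A UMI count of 3' ends does not separate transcripts that share an end, and genes with near-identical copies may lose reads.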

Additional observations from a re-analysis of the deposited data

Results flagged for a closer look

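The mitotic list went opposite ways in the 2 largest classes: the Day 7 over Day 3 log2 ratio was -2.59 (-2.62 to -2.56) in fibroblast-like cells and 1.10 (1.00 to 1.20) in macrophage-like cells, and the Day 14 over Day 7 ratio was -2.19 (-2.24 to -2.13) and 0.72 (0.66 to 0.78). The S-phase list did so from Day 7 to Day 14, at -0.89 (-0.93 to -0.85) and 0.16 (0.10 to 0.22). Neutrophil-like cells, which should not divide, gave 1.14 (0.71 to 1.58) for the mitotic list on Day 7 over Day 3. Within macrophage-like clusters that ratio was -1.67 (-1.86 to -1.47) in cluster 1 and -0.13 (-0.37 to 0.13) in cluster 6. In clusters 2 and 8 it was 0.45 (0.20 to 0.70) and 0.69 (0.38 to 1.00). With 1 library per day the difference between the classes was not tested.

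Barcodes over the mitochondrial limit, which enter no comparison, also held mitotic RNA. They took 375 (347 to 404) CPM in 704 barcodes of Day 3, 266 (242 to 291) in 1352 of Day 7 and 301 (279 to 324) in 2134 of Day 14, beside 885, 358 and 125 CPM in kept cells. On Day 14 the left-out barcodes were thus above the kept cells, and on Days 3 and 7 below them.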

How the results depend on the processing

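No paired analysis was possible because each day is 1 library. The 12 list ratios were recomputed under up to 15 alternatives; of these the *Tnn*-led cluster added was chosen after the data were seen, as was the neutrophil-like level without *Kif23*. Of their values, 56 moved by less than the counting interval of the value as reported, 95 moved by more and 1, whose reported interval did not include 0, changed sign; of the values of members, shares and all genes, 1603 moved by less, 852 by more and 5 changed sign in that way. All ratios of the fibroblast-like lists stayed below 0 and all mitotic ratios of macrophage-like cells above 0 under the alternatives run, while the macrophage-like S-phase ratio of Day 7 over Day 3 lay on both sides of 0. The causes of the moves were not tested.

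For the S-phase list, the log2 ratio of Day 7 over Day 3 in fibroblast-like cells, -2.07 as reported, was -1.86 without the 50 most abundant genes in the totals, -1.89 with median-of-ratios scaling, -1.99 with each cell's CPM averaged, -1.76 with a 5% mitochondrial limit, -1.86 with a 20% limit, -1.84 with doublets kept, -1.75 at resolution 0.5, -1.88 at resolution 2, -1.95 with each library clustered alone, -1.71 with cell cycle genes in clustering, -1.73 with classes per cell, -2.12 without the leading member, -1.75 with the *Tnn*-led cluster added. For the S-phase list, the log2 ratio of Day 14 over Day 7 in fibroblast-like cells, -0.89 as reported, was -0.78 with median-of-ratios scaling, -0.72 with each cell's CPM averaged, -1.15 with a 5% mitochondrial limit, -1.04 with a 20% limit, -1.05 with doublets kept, -1.19 at resolution 0.5, -1.06 at resolution 2, -1.04 with each library clustered alone, -1.23 with cell cycle genes in clustering, -1.07 with classes per cell, -1.10 without the leading member, -1.19 with the *Tnn*-led cluster added. For the mitotic list, the log2 ratio of Day 7 over Day 3 in fibroblast-like cells, -2.59 as reported, was -2.38 without the 50 most abundant genes in the totals, -2.41 with median-of-ratios scaling, -2.68 with each cell's CPM averaged, -1.84 with a 5% mitochondrial limit, -2.13 with a 20% limit, -2.18 with doublets kept, -2.72 with the full doublet rate left out, -1.87 at resolution 0.5, -2.16 at resolution 2, -2.22 with each library clustered alone, -1.57 with cell cycle genes in clustering, -1.86 with classes per cell, -2.50 with at least 500 genes, -2.56 without the leading member, -1.87 with the *Tnn*-led cluster added. For the mitotic list, the log2 ratio of Day 14 over Day 7 in fibroblast-like cells, -2.19 as reported, was -2.08 with median-of-ratios scaling, -1.91 with each cell's CPM averaged, -2.85 with a 5% mitochondrial limit, -2.58 with a 20% limit, -2.52 with doublets kept, -2.40 with the full doublet rate left out, -2.83 at resolution 0.5, -2.57 at resolution 2, -2.24 with each library clustered alone, -3.11 with cell cycle genes in clustering, -2.40 with classes per cell, -2.26 with at least 500 genes, -2.84 with the *Tnn*-led cluster added.

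For the S-phase list, the log2 ratio of Day 7 over Day 3 in macrophage-like cells, 0.018 as reported, was 0.25 without the 50 most abundant genes in the totals, -0.12 with each cell's CPM averaged, -0.098 at resolution 0.5, 0.086 with each library clustered alone, 0.11 with classes per cell, 0.21 without the leading member. For the S-phase list, the log2 ratio of Day 14 over Day 7 in macrophage-like cells, 0.16 as reported, was 0.095 without the 50 most abundant genes in the totals, 0.28 with median-of-ratios scaling, 0.057 at resolution 0.5, 0.23 with each library clustered alone, 0.093 with classes per cell, 0.28 without the leading member. For the mitotic list, the log2 ratio of Day 7 over Day 3 in macrophage-like cells, 1.10 as reported, was 1.33 without the 50 most abundant genes in the totals, 1.21 with a 5% mitochondrial limit, 0.98 with the full doublet rate left out, 0.86 at resolution 0.5, 1.43 with each library clustered alone, 1.31 with cell cycle genes in clustering, 0.95 without the leading member. For the mitotic list, the log2 ratio of Day 14 over Day 7 in macrophage-like cells, 0.72 as reported, was 0.65 without the 50 most abundant genes in the totals, 0.84 with median-of-ratios scaling, 0.79 with a 5% mitochondrial limit, 0.53 at resolution 0.5, 0.88 with each library clustered alone, 0.80 with cell cycle genes in clustering.

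For the S-phase list, the log2 ratio of Day 7 over Day 3 in all kept cells, -1.18 as reported, was -0.95 without the 50 most abundant genes in the totals, -1.11 with median-of-ratios scaling, -0.33 with each cell's CPM averaged, -1.21 with a 5% mitochondrial limit, -1.14 with the full doublet rate left out, -1.25 without the leading member. For the S-phase list, the log2 ratio of Day 14 over Day 7 in all kept cells, -0.75 as reported, was -0.65 with median-of-ratios scaling, -0.32 with each cell's CPM averaged, -0.92 without the leading member. For the mitotic list, the log2 ratio of Day 7 over Day 3 in all kept cells, -1.30 as reported, was -1.08 without the 50 most abundant genes in the totals, -1.23 with median-of-ratios scaling, 0.035 with each cell's CPM averaged, -1.28 with a 20% limit, -1.41 with the full doublet rate left out, -1.28 without the leading member. For the mitotic list, the log2 ratio of Day 14 over Day 7 in all kept cells, -1.52 as reported, was -1.42 with median-of-ratios scaling, -0.73 with each cell's CPM averaged, -1.57 with a 5% mitochondrial limit.

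The macrophage-like S-phase ratio of Day 7 over Day 3, whose reported interval included 0, was below 0 with each cell's CPM averaged (-0.12) and at resolution 0.5 (-0.098). Of values whose interval did not include 0, the sign turned for the mitotic list of all kept cells from Day 3 to Day 7, at 0.035 with each cell's CPM averaged, and for 5 values of single members: *Ccnd1* in fibroblast-like cells on Day 7 over Day 3 (0.16 with a 5% mitochondrial limit and 0.46 with classes per cell), *Pcna* in macrophage-like cells on the same days (0.070 without the 50 most abundant genes), *Pclaf* there (-0.097 at resolution 0.5) and *Ccna2* on Day 14 over Day 7 (-0.080 at resolution 0.5). Depth limits the values of lists with few UMIs: 34 mitotic UMIs without *Kif23* stand behind the neutrophil-like level of Day 3.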

Other observations

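Some Day 14 cells entered no comparison between days. A cluster of 67 T cell-like cells took 505 (405 to 622) CPM of mitotic and 596 (487 to 723) CPM of S-phase genes. Called doublets took 153, 305 and 89.4 CPM of mitotic genes on Days 3, 7 and 14.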
